A study of Homo sapiens with 12 samples.

Results

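Integrins are cell surface receptors made of an alpha and a beta chain, through which cells hold on to the extracellular matrix and signal from it. The 10 genes described here encode the chains ITGA2, ITGA3, ITGA5, ITGA6, ITGAV, ITGB1, ITGB3, ITGB4, ITGB5 and ITGB8. They were taken by gene symbol from a count table of 58051 genes, where each symbol occurs once, and all 10 passed the filter on low counts in every comparison. The chain encoded by ITGB1 pairs with those of ITGA2, a collagen receptor, ITGA3 and ITGA6, laminin receptors, ITGA5, the fibronectin receptor, and ITGAV. ITGB4 pairs with ITGA6 in hemidesmosomes. ITGB3, ITGB5 and ITGB8 pair with ITGAV, the first of them as the vitronectin receptor and the last as a binder of latent TGF-beta. In breast carcinoma cells these receptors are studied for attachment, spreading and invasion.

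The cells were MDA-MB-231, a human breast cancer line labelled as TNBC and the only cells sequenced, so no other breast cell is represented. They were transfected with siRNA pools that target nothing (siControl), NELFA (siNELFA), YAP1 (siYAP) or both (siNELFA+siYAP, the double knockdown), with 3 libraries of total RNA per group and 12 in all. NELFA is a subunit of the complex that holds RNA polymerase II paused near the start of genes, and YAP1 is a transcriptional coactivator that works through TEAD factors. The labels give siRNA at 50 to 100 nM and RNA taken at 48 and 72 h for every group, without saying which library had which, while the methods of the study name 72 h for sequencing. The library names of siControl, siNELFA and siYAP carry a number from 1 to 3, whereas those of the double knockdown share the number 1 and differ in an added index, so whether they came from separate transfections is not stated.

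GRCh38 coordinates from GENCODE release 44, matched by Ensembl identifier, were found for all 10 genes. ITGA5 (ENSG00000161638) lies on chromosome 12 from 54395261 to 54419266 on the minus strand and ITGA2 (ENSG00000164171) on chromosome 5 from 52989340 to 53094779 on the plus strand. ITGB1 (ENSG00000150093) lies on chromosome 10 from 32887273 to 33005792 on the minus strand. Chromosome 17 holds ITGB3 (47253827 to 47313743), ITGA3 (50055968 to 50090481) and ITGB4 (75721328 to 75757818), and chromosome 2 holds ITGA6 (172427354 to 172506459) and ITGAV (186590010 to 186680901), all on the plus strand. ITGB5 lies on chromosome 3 from 124761948 to 124901418 on the minus strand and ITGB8 on chromosome 7 from 20330702 to 20415754 on the plus strand. RefSeq promoter windows on GRCh38.p14 were found for 7 of the 10 genes. ITGA3, ITGB3 and ITGB4 had no entry. The 250 bases before the annotated start are shown for ITGA5 and ITGA2, whose levels differed from siControl in opposite directions in siNELFA, and for ITGB1, the most abundant chain by TPM. Capitals mark GGAATG, the core of the TEAD motif, searched on both strands. The windows are chr12:54419267-54419516 (minus strand), chr5:52989102-52989351 (plus strand) and chr10:32958231-32958480 (minus strand). The ITGB1 window lies inside the GENCODE span of the gene. Another annotated start of ITGB1 has the window chr10:32935559-32935808, which is not shown and does not hold GGAATG.

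ITGA5: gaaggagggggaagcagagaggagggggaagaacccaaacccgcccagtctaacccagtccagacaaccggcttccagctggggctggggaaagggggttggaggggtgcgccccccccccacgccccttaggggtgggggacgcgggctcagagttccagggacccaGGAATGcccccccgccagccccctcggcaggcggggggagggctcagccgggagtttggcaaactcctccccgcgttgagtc
ITGA2: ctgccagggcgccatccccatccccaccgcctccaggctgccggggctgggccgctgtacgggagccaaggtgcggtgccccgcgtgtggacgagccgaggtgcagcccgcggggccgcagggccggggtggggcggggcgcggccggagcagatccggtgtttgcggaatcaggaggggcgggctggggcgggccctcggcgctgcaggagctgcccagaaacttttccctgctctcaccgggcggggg
ITGB1: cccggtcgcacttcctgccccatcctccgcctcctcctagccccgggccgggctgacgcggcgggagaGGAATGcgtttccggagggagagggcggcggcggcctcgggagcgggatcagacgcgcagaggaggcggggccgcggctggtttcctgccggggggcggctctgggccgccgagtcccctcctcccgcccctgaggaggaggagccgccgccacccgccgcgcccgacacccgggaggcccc

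Of the 12 windows of the 7 genes, 2 held GGAATG. The letters began 82 bases before the start in the ITGA5 window and 182 bases before it in the ITGB1 window shown. Both matches were on the gene's own strand. The same letters were in 11.9% of the 35116 windows of all genes. The AP-1 letters TGANTCA, which read the same on both strands and do not overlap the TEAD letters, were in 6.57% of all windows and in 0 of the 12. A match of letters is a description of the sequence and does not show binding.

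Depth ranged from 9608145 to 18803104 counts per library, and the 10 subunits took 47970 to 88667 of them, or 0.377% to 0.517%. NELFA was at 27.0 ± 1.47 CPM (library-scaled counts, mean ± SD of 3 libraries) with siControl, 8.71 ± 1.43 with siNELFA, 26.8 ± 5.69 with siYAP and 7.06 ± 0.949 with both siRNAs. YAP1 was at 274 ± 27.0, 264 ± 22.1, 42.8 ± 4.27 and 41.5 ± 2.01 CPM in the same order. Both targets were thus low where their siRNA was used and in no other group. The mesenchymal markers VIM, CD44 and AXL averaged 1001, 799 and 332 TPM in siControl. The receptors ESR1 and PGR averaged 0.186 and 0.0166 TPM there, and the leukocyte marker PTPRC had 0 counts. The cell type markers EPCAM and PECAM1 were detected in siControl, with 130 to 154 and 32 to 82 counts per library. CPM values are counts scaled by library size with TMM factors and serve comparisons of a gene across libraries. TPM values, which the authors deposited, are per transcript length and serve comparisons between genes.

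In siControl, ITGB1 was the most abundant of the 10 at 639.6 ± 275 TPM (SD, n = 3), followed by the laminin receptor chains ITGA3 at 372 ± 23.2 and ITGA6 at 191 ± 51.6. The fibronectin receptor chain ITGA5 was at 103 ± 42.5, ITGB5 at 81.8 ± 35.1, ITGA2 at 66.3 ± 17.5, ITGAV at 64.4 ± 27.6 and ITGB4 at 46.2 ± 9.39. The lowest levels were 14.3 ± 10.5 TPM for ITGB3 and 0.620 ± 0.416 for ITGB8, which had only 16 to 48 counts in any library. The libraries of ITGB1 and ITGA3, of ITGA3 and ITGA6, of ITGB4 and ITGB3 and of ITGB3 and ITGB8 did not overlap, while every other pair of neighbours in this order did. The order of levels depends on the measure used. The TPM values are not these counts over a fixed length. NELFA, for example, had 67.8 TPM at 25.0 CPM in siYAP replicate 2 and 20.7 TPM at 33.2 CPM in siYAP replicate 1. By counts per kilobase of exon in GENCODE, ITGA3 came first in all 4 groups and ITGB1 in place 3 in siControl. GENCODE's exons of ITGB1 add up to 14561 bases, and those of ITGA3 to 9802.

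ITGA5 took its largest share of the integrin transcripts in the double knockdown. As a share of the summed TPM of the 10 genes, which does not depend on the scaling between libraries, ITGA5 made up 7.00% ± 3.94 of the siControl, 9.24% ± 3.71 of the siNELFA, 10.2% ± 3.43 of the siYAP and 15.03% ± 0.319 of the double knockdown transcripts (SD, n = 3). Its lowest share in the double knockdown, 14.7%, was above its highest anywhere else, 14.1%. ITGA2 was at 4.21% ± 0.481 in siControl and 2.77% ± 0.262 in siNELFA, without overlap. ITGB4 was at 2.97% ± 0.539 in siControl and 3.99% ± 0.389 in siNELFA, also without overlap. ITGA6 was at 12.1% ± 1.06 in siControl, 8.31% ± 2.20 in siNELFA and 8.21% ± 0.408 in the double knockdown. Neither of these knockdowns overlapped siControl for ITGA6. In CPM, however, ITGA2 and ITGA6 did overlap between siNELFA and siControl. Overlap of shares was not computed over all genes. In CPM, 6.04% of all genes were higher and 6.08% lower in every siNELFA library than in siControl. For the double knockdown these were 15.1% and 14.6%. ITGB1 stayed between 34.1% and 47.0% in all 12 libraries. The 5 alpha chains together had 1.10 ± 0.303 times the TPM of the 5 beta chains in siControl and 1.25 ± 0.0792 times in the double knockdown, with overlapping libraries.

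**Figure D1:**
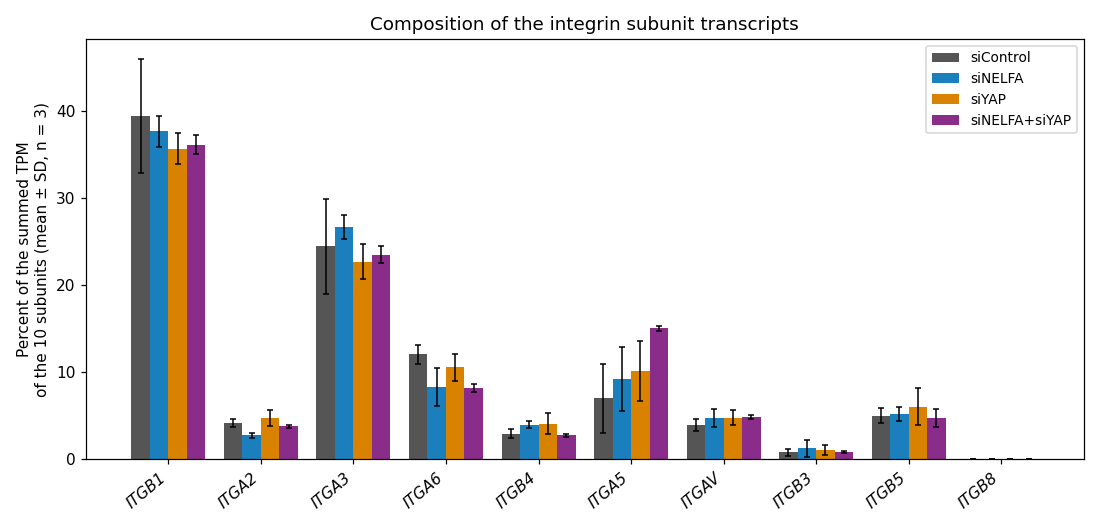
Share of each integrin subunit in the summed TPM of the 10 genes (y axis, percent), by gene (x axis) and siRNA group (colours), with bars as means and error bars as SD over 3 libraries. ITGA5 averages 7.00% in siControl and 15.03% in the double knockdown, and ITGA2 is lowest in siNELFA at 2.77%.

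Before any contrast, the libraries numbered 1 in siControl, siNELFA and siYAP stood apart from the libraries numbered 2 and 3. ITGB3 was the member that moved most with this number. It was at 80.9, 24.3 and 30.4 CPM in siControl replicates 1 to 3, at 149.7, 37.3 and 40.1 in siNELFA, at 100.03, 25.7 and 37.3 in siYAP and at 48.6, 41.8 and 48.5 in the double knockdown. In each of the first 3 groups the library numbered 1 was thus at least 1.57 higher on the log2 scale than the mean of the other libraries, and at most 1.95 higher. The same log2 difference was 0.70 to 1.18 for ITGB5, 0.72 to 1.23 for ITGB8, 0.60 to 1.06 for ITGAV, 0.51 to 0.84 for ITGB1 and 0.24 to 0.90 for ITGB4. ITGA2 was also higher in the library numbered 1 in all 3 groups. ITGA3 and ITGA6 were higher there in 2 of the 3, and ITGA5 in 1 of the 3. In the double knockdown this difference lay between -0.14 and 0.11 for the 10 genes. The epithelial cadherin CDH1 had 169 to 599 counts in the 3 libraries numbered 1 and 0 to 17 counts in the other 9 libraries. The collagen gene COL1A2 was also highest of its group in those 3 libraries, at 379, 652 and 551 counts. Its group minima were 27, 30 and 32 counts. In CPM, EPCAM and CD44 were highest of their group there, whereas VIM and AXL were lowest. These markers thus went in both directions, and the part of any mix of cells in the subunits' levels was not tested. In bulk RNA, more cells of a type and more RNA per cell cannot be told apart. Deviations from the group mean went together between same-numbered libraries of siControl, siNELFA and siYAP, so for these groups fits that block on the replicate number are given beside those without it. The plot of log2 differences between replicate 1 and the others shows which chains carry it.

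**Figure D2:**
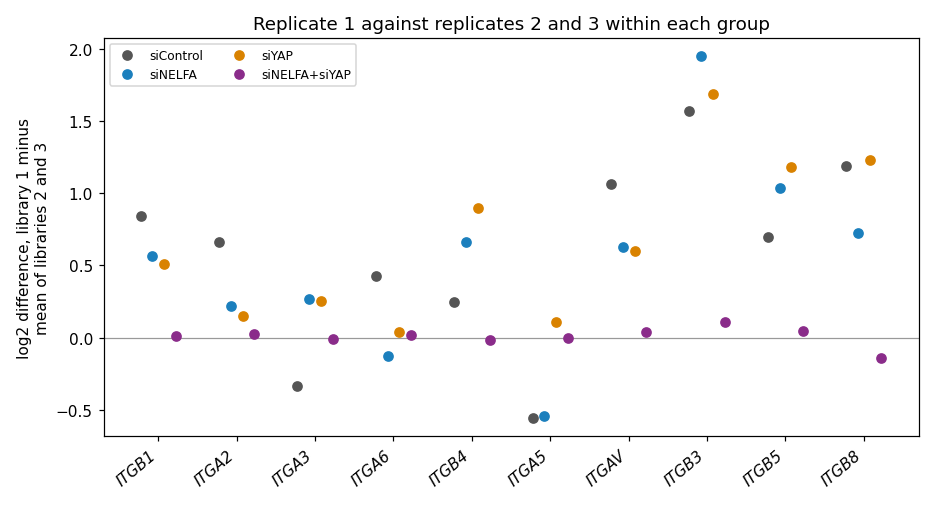
Difference in log2 CPM (y axis) between the library numbered 1 and the mean of the libraries numbered 2 and 3, by integrin subunit (x axis), 1 point per siRNA group. ITGB3 lies between 1.57 and 1.95 in siControl, siNELFA and siYAP, and all points of the double knockdown lie between -0.14 and 0.11.

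The comparison of siNELFA with siControl asks what loss of the pausing factor does. Once libraries were compared within their replicate number, ITGA5, ITGB3 and ITGB4 were called higher and ITGA2 lower in siNELFA. Without that block none of these was called (adjusted p = 0.9996 for each by edgeR). ITGA5 was at 244, 262 and 492 CPM in siControl and 360.5, 443 and 625 in siNELFA, higher in 3 of 3 pairs although the groups overlap. Its log2 fold change with the block was 0.56 (SE 0.097, 1.48-fold, adjusted p = 0.00702 by edgeR). ITGA2 was at 491, 267 and 362 CPM in siControl and 279, 235 and 245 in siNELFA, lower in 3 of 3 pairs, with the siNELFA libraries close together and the siControl libraries spread. It fell by 0.52 on the log2 scale (SE 0.11, adjusted p = 0.0206 by edgeR).

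ITGB4, the hemidesmosome chain, was at 160.2, 147 and 124 CPM in siControl and 279, 183 and 170.1 in siNELFA, where every library was above every siControl library. Its blocked log2 fold change was 0.53 (SE 0.11, adjusted p = 0.0157 by edgeR). ITGB3 was higher in 3 of 3 pairs, with a blocked log2 fold change of 0.65 (SE 0.13, adjusted p = 0.0129 by edgeR). ITGB3 shares its strand and part of its span with RP11-290H9.2 (ENSG00000259753), a gene with 66.4% to 80.2% as many counts as ITGB3 in every library. How reads in both genes were counted is not stated, so the ITGB3 values are uncertain. RP11-290H9.2 itself had a blocked log2 fold change of 0.63 (SE 0.13, adjusted p = 0.0176 by edgeR).

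ITGA3 was at 914, 1107 and 1197 CPM in siControl and 1595, 1352 and 1297 in siNELFA, again without overlap. With the block it missed the threshold (log2 fold change 0.41, SE 0.12, adjusted p = 0.0596 by edgeR), as did ITGAV (0.35, SE 0.11, adjusted p = 0.0876) and ITGA6 (-0.34, SE 0.12, adjusted p = 0.130). ITGB1, ITGB5 and ITGB8 had blocked log2 fold changes of 0.14, 0.01 and -0.60, with standard errors of 0.090, 0.11 and 0.35.

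In counts, the blocked fit called 4 of the 10 subunits at an adjusted p under 0.05, where 5.21% of all genes tested were called, and 7 of 10 at a nominal p under 0.05, against 20.2% of all genes. The median log2 fold change of the 10 was 0.24, and of all genes tested 0.01. Without the block 0 of 10 passed the adjusted threshold (all genes 0.00564%), and also 0 by DESeq2 (all genes 0.158%). At a nominal p under 0.05, 2 passed, ITGA3 and ITGB4 (all genes 4.46%). Those 2 were also the subunits whose siNELFA libraries were all higher (all genes 6.04%), and 0 had all libraries lower (all genes 6.08%). Without replicate 1 the blocked fit called 7 subunits (all genes 15.7%), namely ITGA2, ITGA3, ITGA5, ITGAV, ITGB1, ITGB3 and ITGB4. There ITGA5 had 0.56, ITGB4 0.39, ITGB3 0.52 and ITGA2 -0.36 as log2 fold changes. Without replicate 2 the blocked fit again called 4 (all genes 3.56%), with ITGA6 (-0.52) in place of ITGA5. ITGB4 shares part of its span with GALK1 on the opposite strand, which had 54 to 316 counts.

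**Figure D3:**
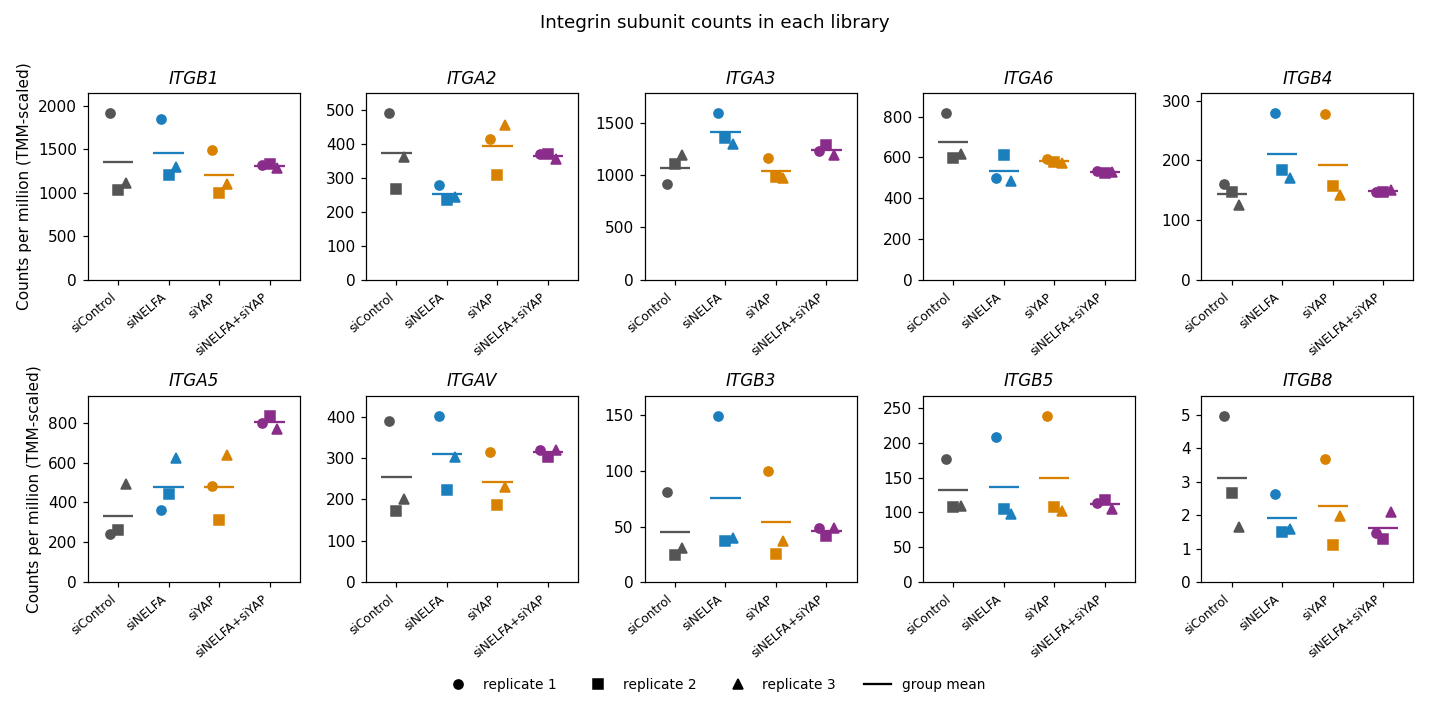
TMM-scaled CPM (y axes, each from 0) of the 10 integrin subunits in each of the 12 libraries, by siRNA group (x axes), with symbols for the replicate number and a line at the group mean. ITGA5 is highest in the 3 double knockdown libraries, at 769 to 835, and ITGA2 is at 235 to 279 in siNELFA.

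After YAP1 knockdown 0 subunits reached an adjusted p under 0.05, where 0.00578% of all genes tested did without the block and 0.0173% with it. DESeq2 also called 0 subunits, and 0.0116% of all genes. ITGA5 was at 482, 314 and 636 CPM in siYAP, higher than the same-numbered siControl library in 3 of 3 pairs, with a blocked log2 fold change of 0.55 (SE 0.13, adjusted p = 0.480 by edgeR). ITGB4 was at 278, 157 and 142 CPM, also higher in 3 of 3 pairs (0.37, SE 0.14, adjusted p = 0.539). These were the 2 subunits at a nominal p under 0.05 with the block (all genes 9.11%), and without it there were 0 (all genes 1.3%). ITGA6 was at 818, 599 and 617 CPM in siControl and 590.3, 576 and 575 in siYAP, the only subunit without overlap, lower in all siYAP libraries (all genes 4.2%), and 0 were higher in all (all genes 3.6%). Its blocked log2 fold change was -0.20 (SE 0.11, adjusted p = 0.573). The other 7 subunits had blocked log2 fold changes between -0.44 for ITGB8 and 0.24 for ITGB3. The blocked fit without replicate 1 called 2 subunits (all genes 1.62%), ITGA5 at 0.33 and ITGA2 at 0.29 on the log2 scale.

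Set directly against each other, the single knockdowns differed most clearly in the collagen receptor chain ITGA2. It was at 415, 308 and 456 CPM in siYAP against 279, 235 and 245 in siNELFA, with every siNELFA library lower (1 subunit of 10, all genes 6.05%). The blocked log2 fold change of siNELFA against siYAP was -0.63 (SE 0.087, adjusted p = 1.81e-05 by edgeR). ITGA3 was at 1167, 984 and 972 CPM in siYAP and higher in every siNELFA library (1 subunit of 10, all genes 6.67%), with 0.44 (SE 0.075, adjusted p = 0.000257). ITGAV, ITGB3 and ITGB1 were higher in siNELFA in 3 of 3 pairs, by 0.34 (SE 0.079, adjusted p = 0.00433), 0.41 (SE 0.10, adjusted p = 0.00925) and 0.27 (SE 0.075, adjusted p = 0.0158) on the log2 scale. In all 5 of 10 subunits were called with the block, where 15.8% of all genes tested were, and the same 5 at a nominal p (all genes 28.3%). Without the block 0 passed the adjusted threshold (all genes 0.0116%), 0 passed by DESeq2 (all genes 0.452%), and 2 passed a nominal p of 0.05, ITGA2 and ITGA3 (all genes 5.63%). Leaving out replicate 1 kept ITGA2 (-0.65), ITGA3 (0.43), ITGAV (0.33) and ITGB1 (0.25) among the 6 called with the block (all genes 14.8%), while ITGB3 had an adjusted p of 0.0836 by edgeR. Without replicate 3, ITGA2, ITGA3 and ITGB3 were called, 3 of 10 where 5.91% of all genes were.

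**Figure D4:**
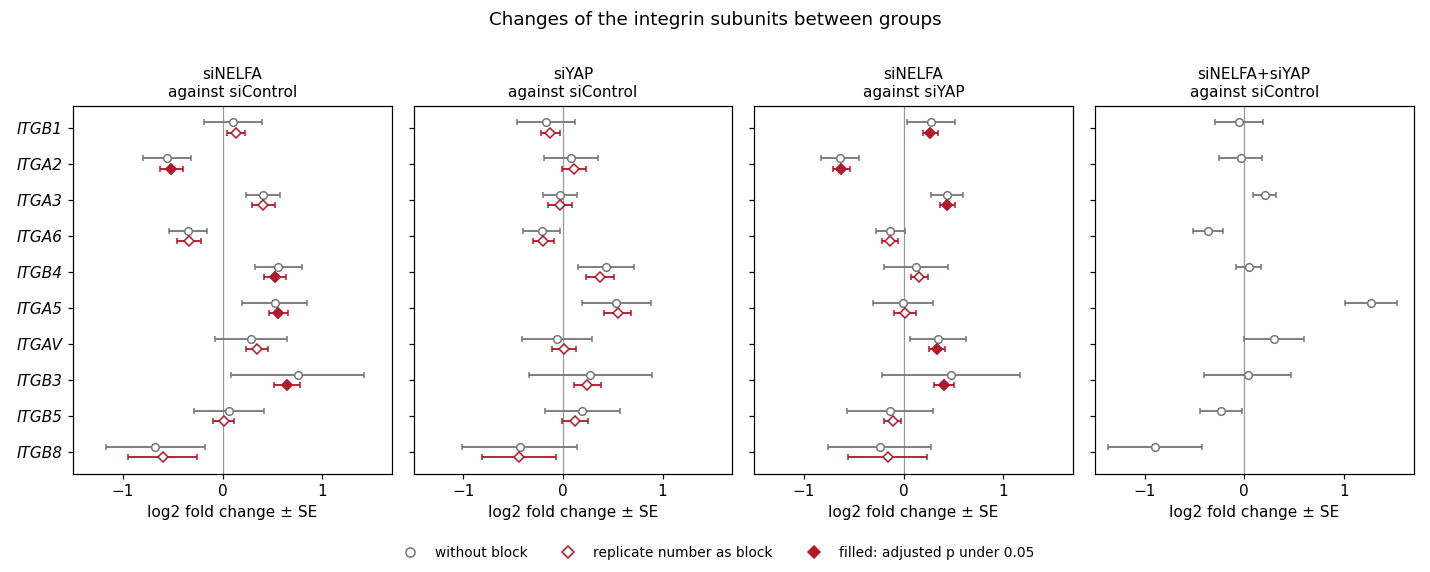
Log2 fold changes with SE (x axes) of the 10 integrin subunits (rows) in 4 comparisons from edgeR fits, without a block (grey circles) and, except for the double knockdown, blocked on the replicate number (red diamonds). Filled symbols have an adjusted p under 0.05. In siNELFA against siControl 4 diamonds are filled, in siNELFA against siYAP 5, in siYAP against siControl 0, and ITGA5 is at 1.27 in the double knockdown.

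With both genes knocked down, ITGA5 had the largest log2 fold change of any subunit in the fits without a block. It was at 799, 835 and 769 CPM in the double knockdown, above all 9 other libraries, the highest of which was siYAP replicate 3 at 636. Against siControl the log2 fold change was 1.27 (SE 0.26, 2.41-fold, adjusted p = 0.0831 by edgeR), short of the threshold. ITGA5 was called by DESeq2 (1.27, adjusted p = 0.000609, all genes 7.65%). It was also called by edgeR without the filter on low counts (adjusted p = 0.00908), where 381 of 32116 genes were called. Its TPM was 228 ± 12.1 in the double knockdown. The laminin receptor chain ITGA6 was at 532, 524 and 527 CPM, below every siControl library, with -0.36 (SE 0.15, adjusted p = 0.252). ITGA5 and ITGA6 were the only subunits at a nominal p under 0.05 (all genes 18.5%) by edgeR. ITGA5 was the 1 of 10 subunits higher in all libraries, where 15.1% of all genes were, and ITGA6 the 1 of 10 lower in all, where 14.6% were, so these counts are near the background. None of the 10 passed the adjusted threshold without the block, where 0.428% of all genes did.

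The calls depended on siControl replicate 1. Without it, 5 subunits were called (all genes 24.4%), with log2 fold changes of 1.10 for ITGA5 (SE 0.16), 0.77 for ITGB3 (SE 0.12), 0.76 for ITGAV (SE 0.069), 0.30 for ITGB1 (SE 0.048) and -0.19 for ITGA6 (SE 0.048). With all 3 siControl libraries, ITGAV, ITGB3 and ITGB1 had 0.30, 0.04 and -0.05, with standard errors of 0.30, 0.43 and 0.24. ITGAV was at 389, 171 and 202 CPM in siControl and 319, 302 and 319 in the double knockdown, so the double knockdown lies between the siControl library numbered 1 and the other libraries. ITGB1 was at 1916, 1033 and 1111 CPM in siControl and 1318, 1329 and 1284 in the double knockdown, in the same position. The 3 double knockdown libraries also varied less among themselves than those of any other group, with a common biological coefficient of variation of 0.0578, where replicates 2 and 3 alone gave 0.113 in siControl, 0.139 in siNELFA and 0.132 in siYAP.

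When YAP1 knockdown was added to NELFA knockdown, no subunit passed the adjusted threshold by edgeR, and ITGA2 had values above those of siNELFA. In the double knockdown it was at 369.5, 369.9 and 356 CPM, higher than every siNELFA library, with a log2 fold change against siNELFA of 0.53 (SE 0.11, adjusted p = 0.735 by edgeR, 0.0361 by DESeq2, where 0.258% of all genes were called). ITGA5 was also higher in all libraries (0.76, SE 0.19, adjusted p = 0.735). These were 2 of 10 subunits, against 7.18% of all genes. ITGA3 and ITGB4 were lower in all libraries, 2 of 10 against 7.89% of all genes, with -0.19 (SE 0.11) and -0.50 (SE 0.19). ITGB4 was at 147, 147 and 151 CPM in the double knockdown, at the level of siControl. At a nominal p under 0.05 there were 3, ITGA2, ITGA5 and ITGB4 (all genes 6.62%), and 0 passed the adjusted threshold (all genes 0.00573%). Without siNELFA replicate 1, ITGA2 (0.62, SE 0.061) and ITGA5 (0.59, SE 0.11) were called, where 1.25% of all genes were.

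When NELFA knockdown was added to YAP1 knockdown, the libraries did not overlap for ITGA5 and ITGA3, which were higher, and ITGA6, which was lower. ITGA5 had 0.74 (SE 0.23, adjusted p = 0.222 by edgeR) and was the only subunit at a nominal p under 0.05 (all genes 15.5%). ITGA3 was at 1230.1, 1286 and 1193 CPM (0.24, SE 0.12, adjusted p = 0.370), which makes 2 of 10 subunits higher in all libraries against 13.9% of all genes. ITGA6 had -0.15 (SE 0.093), 1 of 10 lower in all against 12.6%. None passed the adjusted threshold (all genes 0.035%), and 0 passed by DESeq2 (all genes 4.36%). Without siYAP replicate 1, ITGA5, ITGA3, ITGAV, ITGB3 and ITGB1 were called (all genes 16.5%), at 0.76, 0.34, 0.60, 0.55 and 0.32 on the log2 scale. The effect of siNELFA with siYAP was also tested against its effect without it. That difference was -0.94 for ITGB4 (SE 0.37, adjusted p = 0.9997 by edgeR), past the nominal threshold, and -0.41 (SE 0.13) without replicate 1 of the 3 numbered groups. No other subunit reached a nominal p of 0.05. Over all 18525 genes tested the count was 0 adjusted and 326 nominal. The 6 comparisons share libraries and are not independent of each other.

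Of 16 other integrin subunits, 7 had enough counts to be tested. The leukocyte beta chain ITGB2 had 10.1 ± 0.988 CPM with siControl, 23.9 ± 6.30 with siNELFA, 6.47 ± 3.28 with siYAP and 12.5 ± 1.56 with both siRNAs (mean ± SD of 3 libraries). With the block it rose in siNELFA against siControl (log2 fold change 1.22, SE 0.17, adjusted p = 0.00255 by edgeR) and stood higher in siNELFA than in siYAP (1.95, SE 0.18, adjusted p = 5.85e-08). Leukocyte alpha chains that pair with it were at 0 counts (ITGAL) or at 0 to 2 counts (ITGAM, ITGAX) in siControl. With the block ITGA10, a collagen receptor chain, was lower in siNELFA than in siYAP (-1.37, SE 0.27, adjusted p = 0.00109 by edgeR). It had few counts, 30 to 53 in siNELFA and 69 to 111 in siYAP. The blocked fits called 5.21% of all genes for siNELFA against siControl and 15.8% for siNELFA against siYAP. Without the block 0 of the 7 were called in either comparison. ITGA1 at 14.5 and ITGAE at 17.9 TPM in siControl did not pass the adjusted threshold in any comparison with or without the block.

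Among adaptors and kinases that connect integrins to actin, 36 of 39 were tested, and the blocked fit of siNELFA against siControl called 4 higher and 3 lower, where 5.21% of all genes tested were called in either direction. LIMS1, which binds integrin-linked kinase, fell by 0.88 on the log2 scale (SE 0.14, adjusted p = 0.00409 by edgeR), and the actin crosslinker FLNA had 0.73 (SE 0.11), the scaffold NEDD9 0.70 (SE 0.13) and the kinase PTK2B 0.68 (SE 0.13). Of extracellular ligands 32 of 39 were tested, with 8 higher and 3 lower beside the same 5.21% of all genes. The largest were the matricellular proteins CTGF at 1.29 (SE 0.11) and CYR61 at 0.87 (SE 0.12), the thrombospondin THBS1 at 0.78 (SE 0.11) and the basement membrane collagen COL4A1 at 0.77 (SE 0.095). Fibronectin itself, FN1, fell by 0.46 (SE 0.088, adjusted p = 0.0115), while its receptor chain ITGA5 rose. All 15 membrane partners were tested, and 7 were higher and 0 lower, again beside 5.21% of all genes. Among the 7 were the syndecan SDC4 at 1.07 (SE 0.091), the tetraspanin CD82 at 0.91 (SE 0.12), the urokinase receptor PLAUR at 0.80 (SE 0.096) and the amino acid transporter subunit SLC3A2 at 0.63 (SE 0.12). The median log2 fold changes were 0.16 for adaptors and kinases, 0.25 for ligands and 0.47 for membrane partners, beside 0.01 for all genes.

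In siYAP 0 genes of these 3 lists passed with or without the block by edgeR. With the block, 13 of 32 ligands were at a nominal p under 0.05, 9 higher and 4 lower. So were 4 of 15 membrane partners, all higher, and 5 of 36 adaptors and kinases, 3 higher and 2 lower. Over all genes tested the share was 9.11%. In the double knockdown 5 genes of the lists passed without the block, where 0.428% of all genes did. SDC4 had 1.35 (SE 0.11, adjusted p = 0.0199 by edgeR), CD82 1.05 (SE 0.14, adjusted p = 0.0423), the laminin chain LAMA5 1.03 (SE 0.11, adjusted p = 0.0318), the actin linker TLN2 -1.002 (SE 0.13, adjusted p = 0.0423) and LIMS1 -1.03 (SE 0.15, adjusted p = 0.0477). The lists' medians there were 0.16 for adaptors and kinases, 0.15 for ligands and 0.32 for membrane partners, beside -0.03 for all genes. Between the single knockdowns, the blocked fit of siNELFA against siYAP called 6 adaptors and kinases higher and 4 lower, 7 ligands higher and 8 lower, and 8 membrane partners higher and 1 lower, where 15.8% of all genes tested were called. CTGF had the largest of these log2 fold changes at 2.19 (SE 0.10), followed by CYR61 at 1.34 (SE 0.083), the laminin chain LAMA1 at -1.25 (SE 0.34) and THBS1 at 1.24 (SE 0.094). LAMA1 had few counts, 10 to 41 in siNELFA and 22 to 117 in siYAP. Among membrane partners SDC4 had 0.96 (SE 0.077) and SLC3A2 0.66 (SE 0.098), and among adaptors NEDD9 had 0.91 (SE 0.13) and LIMS1 -0.73 (SE 0.12).

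The 10 subunits did not follow a single pattern across the 12 libraries. Pearson's r of log2 CPM was 0.92 between ITGB1 and ITGB3 and 0.92 between ITGB1 and ITGAV, whereas ITGA6 had -0.66 with ITGA3 and -0.63 with ITGA5, and ITGA2 had -0.61 with ITGA3. All of these share the libraries numbered 1, so they describe these libraries. For each subunit the highest r was then picked from 12962 genes outside the 10 with at least 50 counts on average. High values are therefore a product of that search too. Those most like ITGA5 over the 12 libraries were ISG20 (r = 0.984), KLF4 (r = 0.974) and FAM214B (r = 0.969). The most like ITGA2 was DNAH11 (r = 0.953), the most like ITGA3 was the myosin heavy chain MYH9 (r = 0.951), and the most like ITGA6 was ATP11B (r = 0.946). For ITGB1 it was BRWD1 (r = 0.995), for ITGAV IL1RAP (r = 0.978), for ITGB4 the glypican GPC1 (r = 0.978) and for ITGB8 ZNF555 (r = 0.942). For ITGB3 it was the overlapping gene RP11-290H9.2 (r = 0.992).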

How the data were processed

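Per the labels and the methods of the study, the authors prepared stranded, rRNA-depleted total RNA libraries, aligned reads with STAR (2-pass, GRCh38, Ensembl release 87) and counted them per gene with featureCounts. Versions and the strand setting are not given in the sources used here. The deposited counts are whole numbers per gene, not normalized. The deposited TPM values were normalized for length and depth by the authors. A file of FPKM values equals the TPM values before rescaling and was not used.

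Counts were compared with edgeR 4.0.16 (R 4.3.3) quasi-likelihood fits on the 6 libraries of each of 6 comparisons, with TMM factors, filterByExpr (minimum count 10, total 15) and Benjamini-Hochberg adjustment over all genes tested. A log2 fold change was called at an adjusted p under 0.05, and SE was taken as the absolute log2 fold change over the root of the F statistic. CPM values use TMM factors over 12 libraries. The fits were tested on simulated data that had no effect of the replicate number and larger changes than those of the subunits. That test does not show how the fits perform at the spread of these libraries. The replicate number was used as a block because deviations from group means correlated between same-numbered libraries of siControl, siNELFA and siYAP (r from 0.642 to 0.886 over 12971 genes with 50 counts or more on average), though not with the double knockdown (r from -0.0523 to 0.0256). The labels do not say that a number marks a shared day. The methods of the study call the replicates independent, and p-values measure the spread between these libraries. For the double knockdown it is not stated whether its libraries came from separate transfections. Its p-values may therefore leave out the spread between transfections.

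As alternatives, DESeq2 1.42.0, RLE factors, changed count filters, all 12 libraries in a fit, limma 3.58.1 on log2(TPM + 1) and log2(TPM + 0.1), and fits leaving out libraries were run. Blocked fits without a replicate number and the test of the siNELFA effect with and without siYAP were added after the data were seen. The members and lists were chosen with earlier results of these data known. Named genes were all 10 subunits, NELFA and YAP1, and of each list those called, at most 4 per comparison by size; ITGB2, ITGA10, ITGA1, ITGAE, ITGAL, ITGAM, ITGAX, FN1 and the markers were named after their values were seen. Some of the genes with similar patterns are not reported here.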

Additional observations from a re-analysis of the deposited data

How the results depend on the processing

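Counts of genes past the adjusted threshold depended on the tool and the libraries. For siNELFA against siControl there was 1 gene, against 28 by DESeq2, 3 without the filter on low counts, 8 with all 12 libraries, 924 with the replicate block, 4, 4 and 2 by limma on log2(TPM + 1), on log2(TPM + 0.1) and without the TPM filter, and 0 to 18 leaving out libraries. For siYAP against siControl there was 1, against 2 by DESeq2, 3 with the block, 3, 3 and 2 by the same 3 limma fits, and 0 to 1 leaving out libraries. For the double knockdown against siControl there were 75, against 1342 by DESeq2, 381 without the filter, 2 with the block, 20, 19 and 1 by limma, and 0 to 4531 leaving out libraries. Against siYAP it had 6, against 749 by DESeq2, 222 without the filter, 1 with the block, 1 by limma without the filter, and 0 to 2937. Against siNELFA it had 1, against 45, 26 without the filter, 6, 6 and 5 by limma, and 1 to 228. For siNELFA against siYAP there were 2, against 78 by DESeq2, 6 without the filter, 17 with all 12 libraries, 2721 with the block, and 0 to 39.

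Without the block 0 of 10 subunits were called in each of the 6 comparisons. The replicate block called 4 for siNELFA against siControl and 5 for siNELFA against siYAP, and changed the calls of no other comparison. The double knockdown, whose numbers do not pair, gave 1 called subunit against siControl by DESeq2 and 1 without the filter, and 0 to 5 leaving out libraries. It gave 0 to 5 against siYAP, and against siNELFA 1 by DESeq2 and 0 to 2. Leaving out each replicate number, the blocked fits called 629 to 2835 genes and 4 to 7 subunits for siNELFA against siControl, 18 to 290 genes and 0 to 2 subunits for siYAP against siControl, and 1028 to 2630 genes and 3 to 6 subunits for siNELFA against siYAP.

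On the TPM scale the median of all genes was -0.19 for siNELFA against siControl and -0.13 for the double knockdown against siControl. Relative to it ITGA5 had 0.53 and 1.35, ITGA2 -0.52 and -0.03, ITGB4 0.50 and 0.02 and ITGA3 0.22 and 0.07. Of 945 recomputed log2 fold changes of subunits, 861 kept their direction. Those that turned by limma on log2(TPM + 1), on log2(TPM + 0.1) and without the filter were ITGB1 (-0.18, -0.18 and -0.18) and ITGB5 (-0.065, -0.065 and -0.065) in siNELFA, ITGAV (0.14, 0.14 and 0.14) in siYAP, ITGA3 (-0.060, -0.060 and -0.060) and ITGB4 (-0.11, -0.11 and -0.11) in the double knockdown, ITGB1 (0.038, 0.038 and 0.038) and ITGA6 (0.109, 0.110 and 0.109) for the double knockdown against siNELFA, and ITGAV (-0.014, -0.014 and -0.014) and ITGB4 (-0.011, -0.0096 and -0.011) for siNELFA against siYAP. Without the filter on low counts ITGA5 turned for siNELFA against siYAP (0.012). With the block ITGAV in siYAP (0.0094), and ITGB1 (0.013) and ITGA2 (0.012) in the double knockdown turned, as did ITGB3 against siYAP (0.0071) and ITGA6 against siNELFA (0.0010) in the double knockdown and ITGA5 for siNELFA against siYAP (0.013). Leaving out libraries, the ranges that crossed 0 were, for siNELFA against siControl, ITGB1 (-0.11 to 0.45), ITGB5 (-0.38 to 0.34) and ITGB3 (-0.22 to 1.49). For siYAP against siControl they were ITGB1 (-0.36 to 0.18), ITGA2 (-0.12 to 0.34), ITGA3 (-0.22 to 0.050), ITGAV (-0.29 to 0.40), ITGB3 (-0.51 to 1.01), ITGB5 (-0.32 to 0.48) and ITGB8 (-0.96 to 0.075). For the double knockdown against siControl they were ITGB1 (-0.21 to 0.30), ITGA2 (-0.23 to 0.23), ITGB4 (-0.047 to 0.14), ITGB3 (-0.26 to 0.77) and ITGB5 (-0.36 to 0.051). For the double knockdown against siYAP they were ITGB3 (-0.58 to 0.55), ITGB5 (-0.65 to 0.094) and ITGB8 (-0.79 to 0.068), and against siNELFA ITGB1 (-0.27 to 0.075), ITGA6 (-0.067 to 0.097), ITGAV (-0.17 to 0.26), ITGB3 (-1.04 to 0.27), ITGB5 (-0.48 to 0.16) and ITGB8 (-0.46 to 0.083). For siNELFA against siYAP they were ITGB3 (-0.50 to 1.27), ITGB4 (-0.13 to 0.49), ITGA5 (-0.26 to 0.25), ITGB5 (-0.58 to 0.38) and ITGB8 (-0.56 to 0.29). The cause was not tested. The limma fits with the filter on TPM could not give values for ITGB8, which was under that filter. ITGB8, with at most 48 counts, had the widest standard errors of the subunits in the blocked fits.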
